A study of Rattus norvegicus with 23 samples.

Results

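The genes described here encode the Fc receptors and phagocytic receptors of microglia. Of 10 listed genes, 9 had a row in the deposited table of 20301 genes: the Fc receptors Fcgr1a, Fcgr2b and Fcgr3a, the adaptors Fcer1g and Tyrobp, and the receptors Trem2, Mertk, Axl and Msr1. The tenth, Cd36, was not analysed here. Their values were compared across the 4 groups of a neonatal rat study of hypoxia-ischemia (HI) with and without prior inflammation. All animals were Wistar pups of both sexes at postnatal day 7. The 6 Sham samples came from pups that underwent a sham operation and for which no injection is listed. The 5 LPS samples came from pups given 0.1 mg/kg Escherichia coli lipopolysaccharide intraperitoneally 4 h before a sham operation. The 6 NaCl/HI samples came from pups injected with NaCl, whose left common carotid artery was ligated and which then breathed 8% oxygen for 50 min, and the 6 LPS/HI samples from pups that received the LPS injection before the same insult. In every group cells were isolated 24 h later with magnetic beads against CD11b/c, which other myeloid cells also carry. A Sham or LPS sample was the entire brain of 1 pup, whereas a sample of either HI group pooled the ipsilateral hemispheres of 2 pups. Where an HI group is set against Sham or LPS, the effects of HI, of the tissue taken and of pooling therefore cannot be told apart, and in LPS against Sham those of LPS and of the injection cannot.

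Fc receptors bind antibody that coats a particle. FCGR1A, a high-affinity receptor, and FCGR3A pass the signal through FCER1G, an adaptor whose ITAM motif recruits the kinase SYK, while FCGR2B carries an inhibitory motif that opposes it. TYROBP, also called DAP12, is the corresponding ITAM adaptor of TREM2, a receptor for lipids and lipoproteins that microglia use to respond to damaged cells and myelin. MERTK and AXL are TAM receptor kinases, which recognise phosphatidylserine on dying cells through the bridging proteins GAS6 and PROS1, and MSR1 is a scavenger receptor for modified lipoproteins and bacterial surfaces.

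RefSeq promoter windows on the rat assembly GRCr8, a later build than the mRatBN7.2 build of the deposited values, were available for 4 of the 9 genes: Fcgr3a, Trem2, Mertk and Axl. The 250 bases before the annotated start were searched on both strands for GAGGAA, the core bound by PU.1, the factor that sets up the myeloid lineage. It was present once each in Fcgr3a, Trem2 and Axl, at 54, 29 and 190 bases before the start, and was not found in Mertk. Of 33469 windows of the same length, 23.3% held it. The window of Mertk lies wholly inside that gene's own annotated span, so its letters are not upstream of the gene. The windows of Fcgr3a, Trem2 and Axl are shown because they hold the PU.1 core and belong to genes called below, and they are cut where the gene's own span begins. They lie at chr13:85782386-85782635 (plus strand), chr9:20151798-20152029 (minus strand) and chr1:90424124-90424259 (minus strand). Capitals mark the matches, GAGGAA being read here as its reverse complement on the printed strand, together with GAAANNGAA, an interferon response half-site pair, in Fcgr3a.
Fcgr3a: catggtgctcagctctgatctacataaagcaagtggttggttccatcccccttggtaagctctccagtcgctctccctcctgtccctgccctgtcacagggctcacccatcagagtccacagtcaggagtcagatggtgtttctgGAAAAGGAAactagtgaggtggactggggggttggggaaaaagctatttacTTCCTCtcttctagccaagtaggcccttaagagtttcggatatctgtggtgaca
Trem2: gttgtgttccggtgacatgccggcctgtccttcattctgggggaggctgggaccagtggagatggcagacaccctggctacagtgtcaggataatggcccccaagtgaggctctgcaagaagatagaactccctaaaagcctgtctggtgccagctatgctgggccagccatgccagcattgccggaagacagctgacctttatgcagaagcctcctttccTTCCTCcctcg
Axl: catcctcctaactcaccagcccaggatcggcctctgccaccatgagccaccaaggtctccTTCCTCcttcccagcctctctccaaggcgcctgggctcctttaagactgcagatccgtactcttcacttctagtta
The half-site pair was found in Fcgr3a only of the 4 genes and in 8.12% of all windows. GGGCGG, the GC box, occurred at 2 positions in Mertk and at 1 in Axl, the latter in the part not printed, and in 30.5% of all windows. The motifs TGANTCA (AP-1), GGGANTTCC (NF-kappaB), ACGTG (hypoxia response core) and TTGCNNAA (C/EBP) were absent from these 4 windows and present in 6.34%, 1.43%, 16.6% and 9.22% of all windows. These matches describe letters in a window and were not tested for binding.

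The deposited values are rlog values, on a log2 scale on which a difference of 1 is a doubling, and 3 hidden variables had been removed from them by the authors. They are not scaled to transcript length, so levels are compared between groups and never between genes. Counts are not part of the table and the depth of the samples is unknown. The libraries were alike in scale, with medians between 7.75 and 7.82 over all genes. The microglial markers Csf1r, Cx3cr1 and P2ry12 had values in all 23 samples of no less than 16.30, 15.38 and 13.44, whereas Siglech had values below 0 throughout and Fcrls was not analysed here. A gene was said to rise or fall when limma's p, adjusted by Benjamini-Hochberg over all 20301 genes of the comparison, was under 0.05. These p-values hold only if the removed variables were unrelated to the groups, which was not tested, and are otherwise too low. None of the 9 genes differed by more than 2-fold between any groups. In bulk samples, fewer cells of a type and less RNA per cell cannot be told apart.

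**Figure D1:**
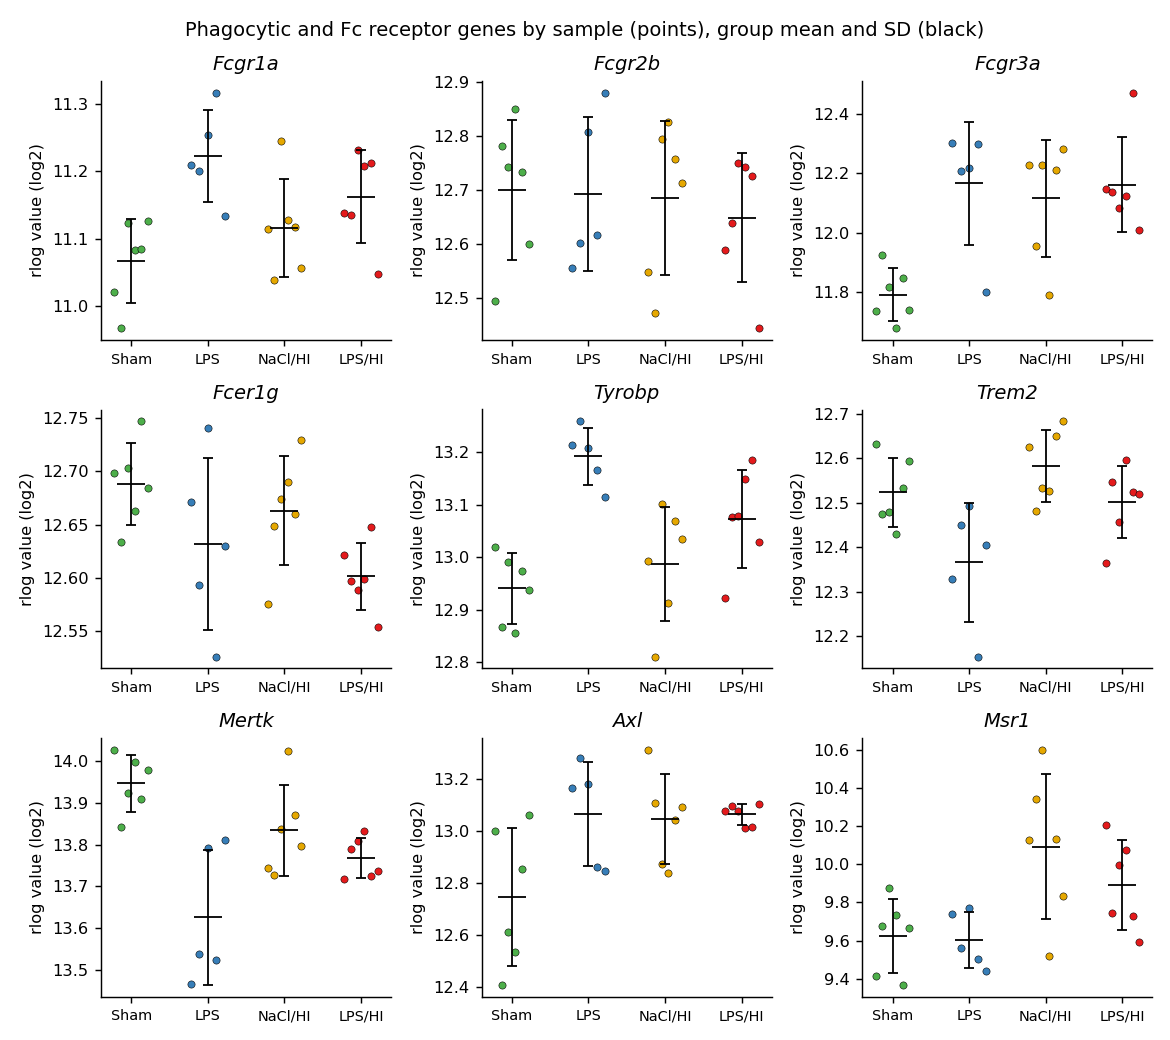
Each panel shows 1 gene, with the rlog value (log2) on the vertical axis, the 4 groups on the horizontal axis, 1 point per sample and the group mean with its SD in black; the vertical axes do not start at 0 and differ between panels. Tyrobp in LPS lies above every Sham sample and Mertk below every Sham sample, whereas the ranges of Fcgr2b overlap between all 4 groups.

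In LPS against Sham, Fcgr1a, Fcgr3a, Tyrobp and Axl rose and Mertk fell, so that 4 of 9 genes were higher and 1 was lower, while 10.2% of all genes were called higher and 7.56% lower. With quantile normalization the split was 3 higher and 2 lower, because Axl lost and Trem2 gained the call. Samples did not overlap between LPS and Sham for 3 of the 9 genes (Fcgr1a, Tyrobp and Mertk) and for 13.9% of all genes. By the exact Wilcoxon rank-sum test, adjusted over all genes, Fcgr1a, Tyrobp and Mertk also passed, whereas Fcgr3a (adjusted p 0.101) and Axl (adjusted p 0.196) did not. All of these changes were under 1.5-fold.

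Among the Fc receptors, Fcgr3a, an activating receptor, had the largest difference. It lay between 11.68 and 11.93 in Sham, with a median of 11.78. In LPS the 5 samples had values of 12.30, 12.21, 12.22, 12.30 and 11.80, so 4 of them lay above all Sham samples and the fifth inside the Sham range. The difference was 0.37 (SE 0.099), a 1.3-fold rise, with an adjusted p of 0.0120, and it was 0.42 in the series of libraries numbered 1 to 12 and 0.29 in the series numbered 13 to 23. LPS/HI samples lay between 12.01 and 12.47, with a median of 12.13, above every Sham sample. Fcgr3a rose by 0.37 (SE 0.094) in LPS/HI against Sham, with an adjusted p of 0.0208, and was the only one of the 9 genes to pass limma's test there. That call depended on 1 library: without LPS/HI replicate 5, the highest, the difference was 0.31 and the adjusted p 0.0585. In NaCl/HI the values ran from 11.79 to 12.28, with a median of 12.22, and the difference from Sham of 0.32 (SE 0.094) did not pass (adjusted p 0.161). The means of LPS, NaCl/HI and LPS/HI, at 12.17, 12.12 and 12.16, did not differ beyond their spread. The symbol Fcgr3a has also been used for the rat gene now named Fcgr2a, which has no row of its own here. Which of these close relatives the row holds, and how reads shared with Fcgr2b were divided, could not be settled from the table.

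Fcgr1a rose by a smaller amount with a small spread. Its 5 LPS samples were at 11.21, 11.20, 11.25, 11.32 and 11.13, and the 6 Sham samples between 10.97 and 11.13, with a median of 11.08. The lowest LPS sample lay just above the highest Sham sample, and the difference was 0.16 (SE 0.046), or 1.11-fold, with an adjusted p of 0.0244. The call was lost without any of 4 libraries (Sham replicates 1 and 2 and LPS replicates 3 and 4), with an adjusted p of up to 0.0782. The order of group means was LPS at 11.22, LPS/HI at 11.16, NaCl/HI at 11.12 and Sham at 11.07, and no neighbouring pair in that order passed the test. Fcgr2b, the inhibitory receptor, passed in no comparison. Its group means lay between 12.65 and 12.70 with SDs between 0.119 and 0.142, and the 95% interval of LPS minus Sham ran from -0.18 to 0.16.

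Of the ITAM adaptors, Tyrobp rose in LPS and Fcer1g did not pass; the difference between these changes was not tested. Tyrobp was at 13.21, 13.26, 13.21, 13.17 and 13.11 in the LPS samples and between 12.86 and 13.02 in Sham, with a median of 12.96. All 5 LPS samples therefore lay above all 6 Sham samples, and the difference was 0.25 (SE 0.055), or 1.19-fold, with an adjusted p of 0.00337. The LPS samples also lay above all NaCl/HI samples, which ran from 12.81 to 13.10. LPS/HI was intermediate, with a mean of 13.07 ± 0.093 (SD, n = 6), and its differences from Sham (0.13, adjusted p 0.112) and from LPS (-0.12, adjusted p 0.302) did not pass. Fcer1g, the partner of the Fc receptors, passed in no comparison of the limma fit. Its mean was 12.69 ± 0.039 in Sham and 12.63 ± 0.081 in LPS, with a 95% interval of the difference from -0.14 to 0.026. In LPS/HI it was 12.60 ± 0.032, and the difference from Sham of -0.087 (interval from -0.17 to -0.0082) did not pass in limma (adjusted p 0.146) but passed the exact Wilcoxon rank-sum test (adjusted p 0.0440).

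Trem2, which signals through TYROBP, did not rise with its adaptor. The LPS samples were at 12.33, 12.45, 12.49, 12.15 and 12.41, and the NaCl/HI samples between 12.48 and 12.68, with a median of 12.58. Only 1 LPS sample entered the NaCl/HI range, and Trem2 was lower in LPS by 0.22 (SE 0.059), with an adjusted p of 0.0255. Against Sham, whose samples lay between 12.43 and 12.63, LPS differed by -0.16 (SE 0.059), and this missed the threshold (adjusted p 0.0698). It passed limma with 19 residual degrees of freedom (adjusted p 0.0384). All 5 LPS samples were below the Sham mean. Within groups, however, Trem2 and Tyrobp varied together: over the deviations of the 23 samples from their group means, Pearson's r was 0.557 (permutation p 0.00542, adjusted over 5 pairs 0.0271). Spearman's rho was 0.542 (permutation p 0.0123, adjusted 0.0617), and r was 0.527 without the 2 samples farthest from the median of Trem2. Within the series of libraries r was 0.532 over 12 samples and 0.343 over 11. The other 4 pairs, Fcer1g with Tyrobp, Fcgr1a and Fcgr3a, and Mertk with Axl, had r between -0.152 and 0.25 and did not pass. Removal of hidden variables before deposit also acts on such deviations.

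The TAM receptors went in opposite directions after LPS. Mertk was at 13.47, 13.54, 13.79, 13.52 and 13.81 in LPS and between 13.84 and 14.03 in Sham, with a median of 13.95. Every LPS sample was below every Sham sample, and Mertk fell by 0.32 on the log2 scale (SE 0.065), to 0.801 of Sham, with an adjusted p of 0.00174. The difference was -0.33 in the series numbered 1 to 12 and -0.30 in the other. In LPS/HI all 6 samples, between 13.72 and 13.83, were also below all Sham samples, but the difference of -0.18 (SE 0.062) did not pass in limma (adjusted p 0.0740). It passed limma with 19 residual degrees of freedom (adjusted p 0.0377), and its adjusted p by the exact Wilcoxon test was 0.0340. Axl was between 12.41 and 13.06 in Sham, the widest Sham range of the 9 genes, and at 13.16, 13.28, 13.18, 12.86 and 12.85 in LPS. The groups overlapped, and the rise of 0.32 (SE 0.110) passed narrowly (adjusted p 0.0473). It was 0.54 in the series numbered 1 to 12 and 0.037 in the series numbered 13 to 23, and it was lost when any of 16 of the 23 libraries was left out; the exceptions were Sham replicates 1 and 6, LPS replicates 4 and 5 and NaCl/HI replicates 1, 3 and 4. The differences of Axl from Sham in NaCl/HI and LPS/HI were 0.30 and 0.32, with adjusted p of 0.208 and 0.0598, the latter 0.0312 with 19 residual degrees of freedom, and all 6 samples of either group lay above the Sham mean.

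**Figure D2:**
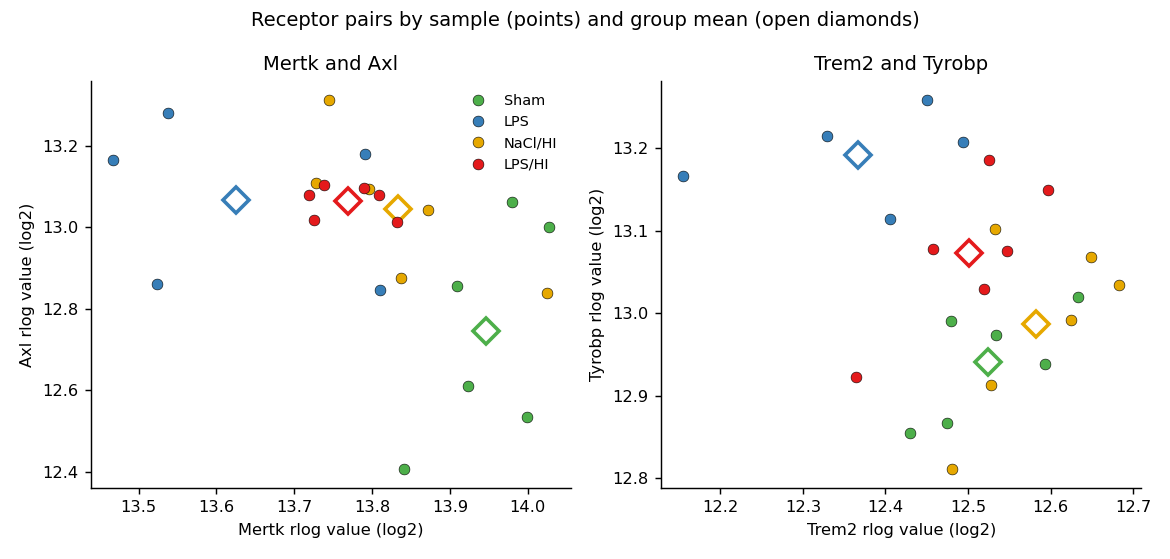
Each point is 1 sample, with the rlog value (log2) of Mertk and Axl on the axes of the left panel and of Trem2 and Tyrobp on those of the right panel; open diamonds are group means. In the left panel the Sham mean, at 13.95 for Mertk and 12.74 for Axl, lies lowest and farthest right, and in the right panel the LPS mean, at 12.37 for Trem2 and 13.19 for Tyrobp, lies highest and farthest left.

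Msr1 had its highest values after HI without LPS. The NaCl/HI samples ran from 9.52 to 10.60, with a median of 10.13, and the LPS samples were at 9.74, 9.56, 9.77, 9.50 and 9.44. The ranges overlapped through 1 NaCl/HI sample and the difference of LPS from NaCl/HI was -0.49 (SE 0.15), to 0.712 of NaCl/HI, with an adjusted p of 0.0436. It was -0.67 in the series numbered 1 to 12 and -0.36 in the other. NaCl/HI exceeded Sham by 0.47 (SE 0.143), the largest difference from Sham of any of the 9 genes in any group, without passing (adjusted p 0.169). LPS/HI lay between, at 9.89 ± 0.238 (SD, n = 6).

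**Figure D3:**
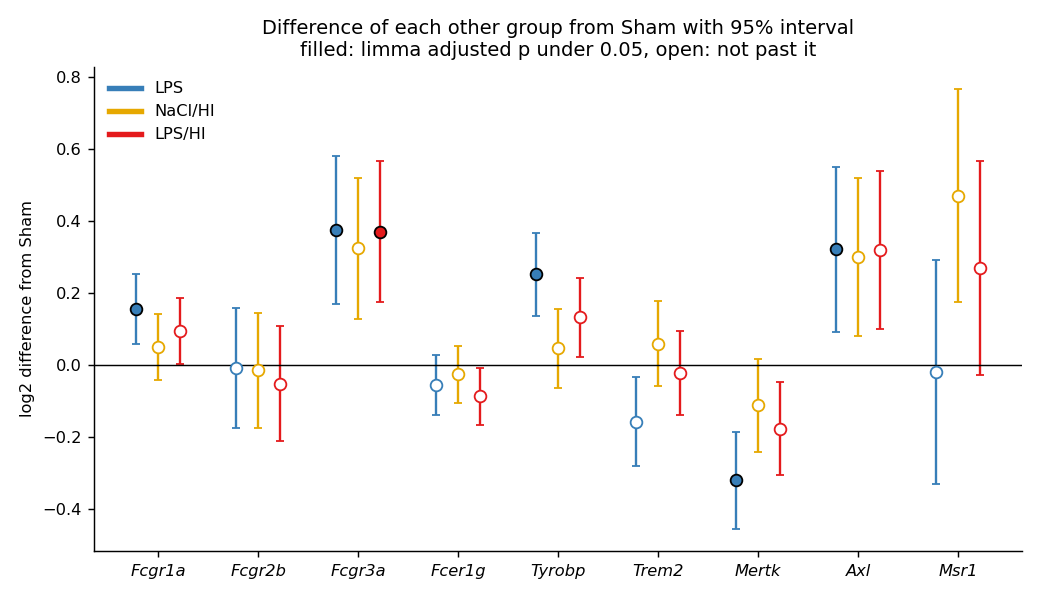
The log2 difference of LPS, NaCl/HI and LPS/HI from Sham is plotted for each gene, with its 95% interval; filled points passed limma's adjusted p and open points did not. The filled points are Fcgr1a, Fcgr3a, Tyrobp, Mertk and Axl in LPS and Fcgr3a in LPS/HI, and the 3 groups share the Sham samples.

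The comparison of LPS with NaCl/HI, which sets systemic inflammation against HI, gave 1 higher gene, Tyrobp (0.21, SE 0.055, adjusted p 0.0233), and 3 lower ones, Trem2, Mertk (-0.21, SE 0.065, adjusted p 0.0487) and Msr1. Over all genes 5.32% were higher and 3.66% lower. Samples did not overlap for 1 of the 9, Tyrobp, against 7.31% of all genes. These calls depended on single libraries: Tyrobp was lost without any of 3 libraries, Trem2 without any of 5, Msr1 without any of 13 and Mertk without any of 20 of the 23. Without LPS replicate 1 none of the 4 passed. By the exact Wilcoxon rank-sum test the adjusted p was 0.0593 for Tyrobp, 0.0838 for Trem2, 0.166 for Msr1 and 0.285 for Mertk. Tyrobp, whose samples did not overlap, had the lowest p this test can reach. No gene could therefore pass it in this comparison.

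None of the 9 genes was called for HI when LPS treatment was the same on both sides, nor for LPS between the HI groups. In NaCl/HI against Sham limma called 0 of 9, with 3 at an unadjusted p under 0.05 (Fcgr3a, Axl and Msr1), and 0.00985% of all genes in either direction. Samples overlapped for every one of the 9, against 1.01% of all genes without overlap. In LPS/HI against Sham, where 1 of 9 was called, 5.3% of all genes were higher and 3.48% lower, and samples did not overlap for Fcgr3a and Mertk, 2 of 9, against 6.37% of all genes. In LPS/HI against LPS limma called 0 of 9 (3 at an unadjusted p under 0.05) and 1.94% of all genes, and 4.17% of all genes but none of the 9 were without overlap. In LPS/HI against NaCl/HI limma called 0 of 9 (0 at an unadjusted p under 0.05) and 0.202% of all genes, and 1.33% of all genes but none of the 9 were without overlap. The interaction of LPS with HI was called for 0 of 9 (3 at an unadjusted p under 0.05: Fcgr3a, Tyrobp and Mertk) and for 1.08% of all genes. The largest interactions were those of Fcgr3a, at -0.33 with a 95% interval from -0.61 to -0.045, and of Axl, at -0.30 with an interval from -0.62 to 0.015. The exact Wilcoxon rank-sum test gave 0 calls in NaCl/HI against Sham, LPS/HI against LPS and LPS/HI against NaCl/HI. Its lowest possible p belongs to genes without overlap. Those were 1.01%, 4.17% and 1.33% of all genes, too few for any gene to pass after adjustment. The 0 calls by that test therefore do not bear on the 9 genes in these comparisons. With array weights, whose estimation did not converge, limma called 3, 3 and 1 of the 9 genes in these comparisons and 4 for the interaction, beside 3.21%, 20%, 14.4% and 10.9% of all genes under that setting.

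Genes around these receptors moved in both directions in LPS against Sham, where 10.2% of all genes were higher and 7.56% lower. ITAM signalling downstream of the adaptors had 6 of 30 genes higher and 5 lower in LPS against Sham. Among them Pik3cd, a PI3-kinase catalytic subunit, rose by 0.33 and the adaptor Hcst by 0.27, while the list median was -0.024 against -0.014 for all genes. Of inhibitory receptors and phosphatases, 6 of 26 were higher and 2 lower, with Clec12a at 0.82, Cd22 at 0.64 and Siglec5 at -0.76 (list median 0.038). Other Fc receptor genes gave 2 of 14 higher, the Fc receptor-like Fcrla (0.40) and Fcrlb (0.30), and none lower (list median -0.054). In the list of TREM family members and other TYROBP partners, 2 of 23 were higher and 3 lower. The macrophage growth factor Csf1 fell by 0.50, and Il34, the other ligand of its receptor, rose by 0.33.

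Of 15 genes of the TAM receptor pathway, not all of them ligands or partners of the receptors, 0 rose in LPS against Sham and 2 fell. These were Tulp1 (-0.52, with means of 3.12 in LPS and 3.64 in Sham) and Twist1 (-0.22, with means of 4.46 and 4.68). Of scavenger receptors, 1 of 25 was higher, the LPS co-receptor Cd14 (0.48), and 4 were lower, with Mrc1 at -0.50 and Stab1 at -0.44. Of engulfment genes, 6 of 35 were higher and 6 lower, among them Rac2, a GTPase of the cytoskeleton, at 0.35, and Havcr2 and P2ry12 at -0.38 and -0.36. Of complement and integrin receptors and ligands, 5 of 17 were higher and 2 lower. C3, the central complement opsonin, had a difference of 1.52 and was the only gene of the 8 lists to exceed 2-fold, and C1qc and C1qa rose by 0.41 and 0.29.

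In LPS/HI against Sham between 1 and 5 genes of each list passed, where 5.3% of all genes were higher and 3.48% lower. C3 rose by 1.24, the integrin Itgax by 0.85, Clec12a by 0.66, Cd14 by 0.58 and Anxa1 by 0.58. In LPS against NaCl/HI, 5.32% of all genes were higher and 3.66% lower. Of 25 scavenger receptors 2 were higher and 4 lower, among the latter Lrp1, Colec12 and Stab1 by 0.51, 0.43 and 0.41. In other lists Lgals3 was lower by 0.89 and Anxa5 by 0.55, whereas C3 was higher by 0.80 and Pik3cd by 0.27. No gene of the 8 lists passed in NaCl/HI against Sham or in LPS/HI against NaCl/HI. In LPS/HI against LPS 5 genes of the lists passed, where 1.94% of all genes were called in either direction. Of 35 engulfment genes 1 was called, Anxa1, higher by 0.73. Of 30 ITAM signalling genes 3 were lower, Card9, Plcg2 and Pik3cd, by 0.20, 0.19 and 0.18. Of 25 scavenger receptors 1 was lower.

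**Figure D4:**
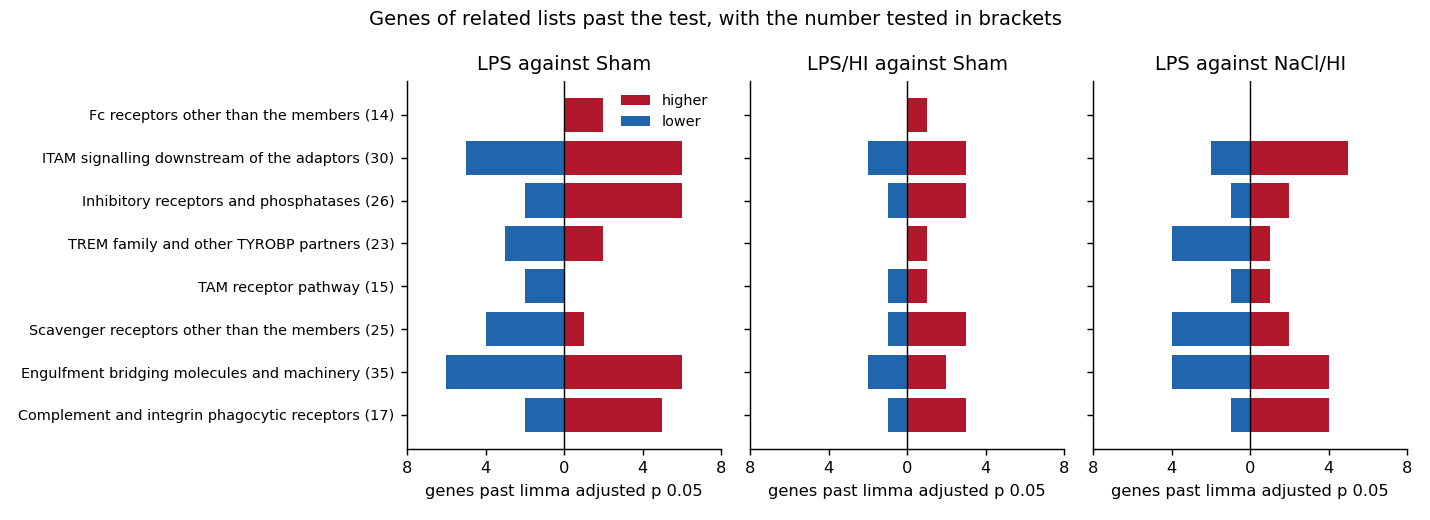
Bars give the number of genes of each related list that passed limma's adjusted p, with higher genes to the right and lower genes to the left of 0, for LPS against Sham, LPS/HI against Sham and LPS against NaCl/HI. The bracket after each list name is the number of genes tested, and in the first panel ITAM signalling has 6 higher and 5 lower genes.

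Some markers of microglia and of other cell types passed the test between groups, and their counts stand beside shares over all genes of 10.2% higher and 7.56% lower in LPS against Sham, 5.3% and 3.48% in LPS/HI against Sham, and 5.32% and 3.66% in LPS against NaCl/HI. Of 11 microglial markers, 6 fell in LPS against Sham, with a median difference of -0.25. Their mean level was between 11.76 and 11.94 in LPS and between 11.97 and 12.18 in Sham, without overlap, and 2 fell in LPS/HI against Sham. Of 11 markers of border-associated macrophages, which also express Mertk and scavenger receptors, 3 fell in LPS (Lyve1 by 0.83, with Mrc1 and Stab1) and 1 rose, and the mean level was between 10.57 and 10.84 in LPS and between 10.62 and 11.31 in Sham. Of 12 monocyte markers, 1 rose in LPS, Plac8, by 1.17, and the mean level ran from 7.87 to 8.17 against 7.78 to 8.10 in Sham. Of 15 neutrophil markers, 6 rose in LPS/HI against Sham, and the mean level ran from 6.42 to 7.32 there, from 6.17 to 6.60 in Sham and from 5.99 to 6.46 in LPS. S100a8 and S100a9 rose by 1.11 and 1.18 in LPS/HI. Ngp and Ltf did not pass there, and their means were lower than in Sham (6.50 against 7.08 and 4.73 against 4.89). Neutrophils also carry CD11b. Markers of other lists also passed. In LPS against Sham, 5 of 11 neuronal and 2 of 5 platelet markers fell, 4 of 12 endothelial markers fell and 1 rose, 2 of 15 neutrophil markers fell and 1 rose, and 2 of 10 astrocyte and 2 of 8 B cell markers rose. In LPS/HI against Sham, 5 of 13 markers of mural cells and fibroblasts, 2 of 12 endothelial, 2 of 12 monocyte, 2 of 10 astrocyte and 1 of 8 B cell markers rose, 3 of 11 neuronal, 1 of 11 border-associated macrophage and 1 of 5 platelet markers fell, and of 10 T and NK cell markers 1 rose and 1 fell. The 10 markers of the oligodendrocyte lineage and the 6 of erythrocytes passed in neither comparison, and no marker of the 13 lists passed in NaCl/HI against Sham. In LPS against NaCl/HI, where Tyrobp, Trem2, Mertk and Msr1 were called, 4 of 11 microglial markers fell, with a median difference of -0.18. There 3 of 13 markers of mural cells and fibroblasts fell, and 2 fell and 1 rose of 11 for border-associated macrophages and of 12 for endothelium. Of 12 monocyte markers Plac8 rose by 1.26 and Fn1 fell by 0.83, of 10 astrocyte markers 2 rose and 1 fell, 1 neutrophil, 1 neuronal and 1 platelet marker fell, and 1 B cell marker rose. The part of these cells in the values of the 9 receptors was not tested.

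**Figure D5:**
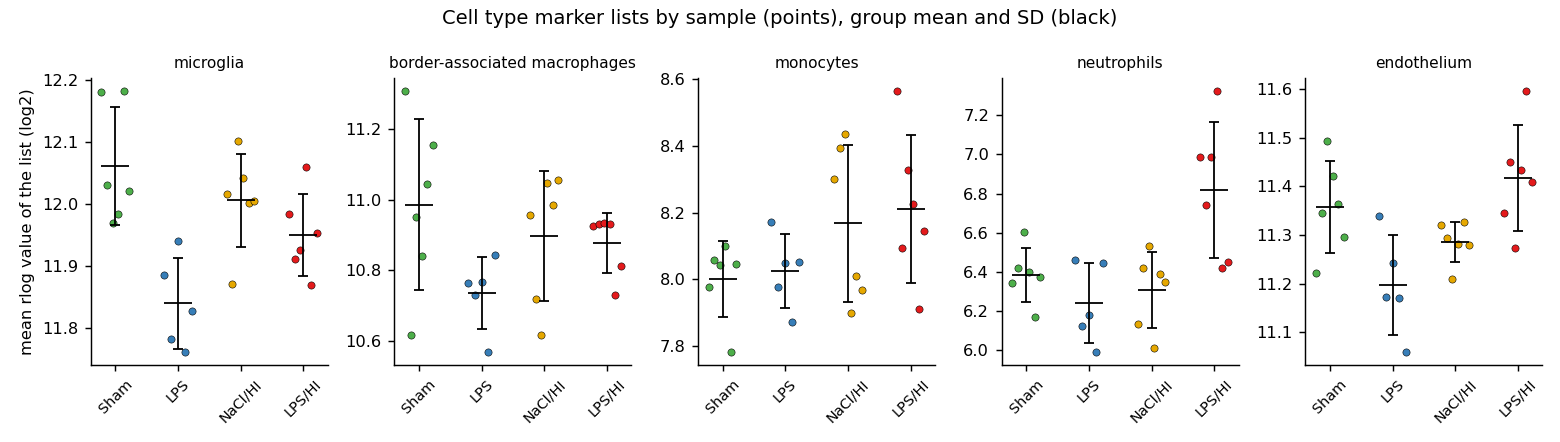
The mean rlog value (log2) of each of 5 marker lists is plotted for every sample by group, with the group mean and SD in black; axes do not start at 0 and differ between panels. Microglial markers are lower in LPS than in every Sham sample, and neutrophil markers reach 7.32 in LPS/HI.

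The genes of the table whose values were most like those of each receptor over the 23 samples were named as a description, since samples share their groups and the removal of hidden variables. Fcgr3a was nearest to Actg1 and Kars1 (r of 0.940 and 0.931), Tyrobp to H3f3b and Rpl10a (0.925 and 0.921), Msr1 to Cd44 and Hk3 (0.945 and 0.938), Mertk to Plppr4 and Siglec10 (0.917 and 0.908), Fcgr1a to Bcl2a1 and Cenpk (0.916 and 0.838), and Axl to Cd68 and Galns (0.892 and 0.844). Trem2 was nearest to Aebp1 and AABR07002969.1 (0.837 and 0.833). Fcer1g (Tmem60 and Tssk6, 0.770 and 0.724) and Fcgr2b (Hiat1-ps1 and LOC120096428, 0.747 and 0.731), which passed in no comparison of the limma fit, had the lowest values.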

How the data were processed

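RNA of CD11b/c-positive cells was sequenced in 23 samples, which were grouped by their titles; the labels do not say which samples shared a litter. Per their methods, the authors ran kallisto 0.48.0 against mRatBN7.2, used tximport to pass the estimates to DESeq2, dropped weakly covered genes, added up coding genes that share a symbol, and deposited rlog values on the log2 scale from which limma and sva had removed 3 surrogate variables. Without counts the depth, and the precision it sets, is unknown, and no count test was run.

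All 6 pairs of groups and the interaction were tested in 1 limma 3.58.1 fit (R 4.3.3) of 23 samples, with a variance trend, residual degrees of freedom lowered from 19 to 16 for the removed variables, and Benjamini-Hochberg adjustment over 20301 genes. Pairs of members were correlated with 100000 permutations within groups (Python 3.11.15, scipy 1.17.1). No gene was filtered out. Replicate numbers did not pair the samples: of 33 same-numbered pairs, 9 correlated over 0.1. The members, the 8 related lists and 13 cell type lists were written by hand with earlier results of these data known, and up to 3 called genes per list and comparison, by size, and 2 like genes per member were named. Results of some single genes that this rule would name are not reported here.

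The fit was tested on simulated tables from which 3 variables had been removed. It recovered the changes with few false calls where those variables were unrelated to the groups. The scenario tried first, in which they overlapped with the groups by chance, failed, with mostly false calls. The calls were therefore checked only for the unrelated case. Which of the cases holds in these samples was not tested, and p-values can be too low. Alternatives were an exact Wilcoxon test, a fit of only the groups compared, a fold change above 2, limma's array weights, quantile normalization, centring on the median, a test without the lowest 25% of genes, a block for the library series or the replicate number, no trend, 19 degrees of freedom, and each library left out.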

Additional observations from a re-analysis of the deposited data

Results flagged for a closer look

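Of 36 combinations of a gene and a group, 2 held a sample far from the others by Dixon's criterion, which by chance marks about 1 in 20; both concern Fcgr3a. LPS replicate 5 was at 11.80, with its nearest neighbour at 12.21, a gap of 0.815 of the group's range. LPS/HI replicate 5 was at 12.47, with its nearest neighbour at 12.15, a gap of 0.698 of the range. Without the former the difference of LPS from Sham was 0.47, and without the latter that of LPS/HI from Sham was 0.31 and no longer passed (adjusted p 0.0585 in limma).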

How the results depend on the processing

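Of 675 differences of single genes under alternatives with all libraries, 606 kept direction and side of the threshold, 31 lost it, 23 gained it and 15 changed sign; of 1449 with a library left out the numbers were 1326, 62, 7 and 54. Fcgr3a, Tyrobp and Mertk in LPS against Sham passed whichever library was left out. The p-values assume that the variables removed before deposit were unrelated to the groups.

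The number of the 9 genes called in LPS/HI against Sham, 1 as reported, became 3 with 19 residual degrees of freedom, 0 with a replicate block, 5 with array weights (42.2% of all genes), 0 with a fold change above 2, and 3 with only the groups compared or the exact Wilcoxon test. In LPS against NaCl/HI the 4 calls became 2 without the variance trend, 1 with the replicate block, 0 above 2-fold, 2 with only the groups compared and 0 by the exact Wilcoxon test. No gene could pass the exact Wilcoxon test in that comparison, not even one without overlap. In LPS against Sham the 5 calls became 0 above 2-fold and 3 by the exact Wilcoxon test. With 19 residual degrees of freedom all 5 were kept and Trem2 gained the call (adjusted p 0.0384 in limma). Array weights, whose estimation stopped before it converged, gave 3 calls in NaCl/HI against Sham, 3 in LPS/HI against LPS, 1 in LPS/HI against NaCl/HI and 4 for the interaction, where 0 were reported, with 3.21%, 20%, 14.4% and 10.9% of all genes called; the cause was not tested. With a library left out the calls ranged from 3 to 5 in LPS against Sham, 0 to 2 in NaCl/HI against Sham, 0 to 2 in LPS/HI against Sham and 0 to 4 in LPS against NaCl/HI. The replicate block is a fit by number only, since same-numbered samples correlated between -0.475 and 0.470 and 5 of 23 samples correlated best with their own number.

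Reversals concerned differences near 0. With a replicate block this was Fcgr2b (-0.0114) for LPS against NaCl/HI. With a library series block these were Fcgr3a 0.00114 and Axl 0.00560 for LPS/HI against LPS. With median centring it was Fcgr2b at 0.00719 for LPS against Sham. With quantile normalization these were Fcgr3a 0.0102 for LPS/HI against LPS, Axl 0.0196 for LPS/HI against LPS, Fcgr2b -0.00250 for LPS against NaCl/HI, Fcgr2b 0.0153 for the interaction, Fcer1g 0.0297 for the interaction. With array weights these were Trem2 0.0349 for LPS/HI against Sham, Fcgr3a -0.0256 for LPS/HI against NaCl/HI, Axl -0.0297 for LPS/HI against NaCl/HI, Fcer1g 0.00770 for LPS against NaCl/HI, Axl -0.00227 for LPS against NaCl/HI, Fcgr2b 0.0216 for the interaction. With a library left out, some differences changed sign. For LPS against Sham, Fcgr2b ranged from -0.0553 to 0.0258 and Msr1 ranged from -0.0711 to 0.0306. For NaCl/HI against Sham, Fcgr2b ranged from -0.0565 to 0.0270. For LPS/HI against Sham, Trem2 ranged from -0.0413 to 0.00512. For LPS/HI against LPS, Fcgr3a ranged from -0.0949 to 0.0302, Axl ranged from -0.0571 to 0.0515 and Fcgr2b ranged from -0.0778 to 0.00338. For LPS/HI against NaCl/HI, Axl ranged from -0.0220 to 0.0730, Fcgr3a ranged from -0.0187 to 0.0795 and Fcgr2b ranged from -0.0790 to 0.00439. For LPS against NaCl/HI, Axl ranged from -0.0321 to 0.0764, Fcgr2b ranged from -0.0399 to 0.0413 and Fcgr3a ranged from -0.0148 to 0.141. For the interaction, Fcgr2b ranged from -0.0706 to 0.0188 and Fcer1g ranged from -0.0319 to 0.0219.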
